A study of Mus musculus with 2 samples.

Results

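The smooth muscle and contractile genes described here are Acta2, Actg2, Tagln, Cnn1, Myh11, Myl9, Tpm1, Tpm2, Cald1 and Lmod1, and all 10 were found by symbol among the 46095 genes of the count table. They were compared between 1 library of MALAT1-knockdown cells and 1 library of control cells. Both were C3H10 cells, a mouse mesenchymal line with adipogenic ability whose strain is labelled C57BL/6. The cells received 100 nM of an antisense oligonucleotide (ASO) with a lipid transfection reagent, were grown to confluence, and were then induced to differentiate with isobutylmethylxanthine, dexamethasone, troglitazone and insulin, followed by insulin alone. The ASO was directed against MALAT1 in the knockdown cells and was the negative control (NC) in the others, and RNA was taken at differentiation day 6. The sequence of the ASO used for these libraries, and which of the study's designs it was, are not given in the sources used here. With 1 library per group, no difference has a replicate check, and the interval of each value covers counting error only.

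Smooth muscle contracts when myosin filaments pull on actin filaments. The smooth muscle actins form the thin filament, tropomyosins lie along it, and caldesmon, calponin and transgelin bind to it. Fibroblasts and other mesenchymal cells build stress fibres from related, nonmuscle forms of the same proteins, and α-smooth muscle actin is the usual mark of a myofibroblast. Serum response factor (SRF) drives many of these genes from CArG boxes, together with myocardin or its relatives, the myocardin-related transcription factors (MRTFs).

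In total 58147539 reads were counted for control cells and 61653549 for MALAT1-knockdown cells. The targeted gene was lower in the library labelled as knockdown, where Malat1 was at 24.7% of its control level. Counts were divided by library sizes scaled with edgeR's TMM factors (0.992 and 1.01) and are given as CPM, the counts of a gene per 1000000 counts of the scaled library. The fold is the ratio of knockdown over control on this scale, its log2 was taken with a prior count of 0.5, and its 95% interval is a Clopper-Pearson interval. A gene was tested, in the sense of being compared, when both libraries together held at least 10 counts, which 17356 genes did. A gene was called when it was at least 1.5-fold higher or lower, a log2 fold change of 0.585 in either direction, and no p-value was computed.

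Promoter sequences from RefSeq (GRCm38.p6) were found for 7 of the 10 genes and show where the SRF motif lies near the start. Actg2, Tagln and Myh11 had no entry. The motifs were searched on both strands in the 250 bases before the start. The CArG box in its strict form is CC, 6 bases that are each A or T, and GG, and in the relaxed form exactly 1 of the inner bases is G or C. Of 32851 promoters, 1.47% held the strict form and 7.24% the relaxed form. Myl9 held 1 of each, the strict form beginning 161 bases before the start. Acta2 held none of the strict form and 2 of the relaxed form, which begin 84 and 34 bases before the start. The promoters of Cnn1, Tpm1, Tpm2, Lmod1 and both promoters listed for Cald1 held neither. The MCAT motif (CATTCC or its reverse complement GGAATG), to which TEAD factors bind, stood once in each of Acta2, Lmod1, Tpm1 and 1 of the Cald1 promoters, and in 12.6% of all promoters. A match is a description of the letters, and binding was not measured here. Capitals mark the CArG forms in Myl9 (chr2:156775214-156775407, plus strand) and, in the 3 windows from Acta2, the MCAT motif (chr19:34255502-34255531) and then the relaxed CArG forms (chr19:34255438-34255467 and chr19:34255388-34255417), all on the minus strand. The Acta2 windows lie inside the gene as GENCODE M21 draws it, because that annotation places the start farther upstream. GENCODE M21 and the RefSeq gene record both start Myl9 inside the 250 bases searched, and the printed stretch stops before either start. All distances given here count from the start of the promoter entry. For Myl9 that start lies farther downstream than those of both gene records, so the distances from them would be shorter.
Myl9: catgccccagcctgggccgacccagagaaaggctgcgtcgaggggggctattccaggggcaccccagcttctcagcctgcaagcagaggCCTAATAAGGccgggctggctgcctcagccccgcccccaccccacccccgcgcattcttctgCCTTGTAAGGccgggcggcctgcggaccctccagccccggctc
Acta2 MCAT: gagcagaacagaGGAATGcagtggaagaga
Acta2 CArG, upstream: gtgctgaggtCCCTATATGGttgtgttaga
Acta2 CArG, downstream: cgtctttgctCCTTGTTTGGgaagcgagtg

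The contractile genes separated by count, with no correction for length, into abundant and scarce ones in both libraries. Acta2, Tpm1, Tpm2, Cald1 and Lmod1 had from 4129 to 28518 counts each in control cells, whereas Tagln, Actg2 and Myh11 had from 35 to 67, Cnn1 had 0 and Myl9 lay between with 554. Per kilobase of exon, Myl9 was nearer to the abundant genes, at 8.26 CPM against 18.1 CPM for Lmod1 in control cells. In the knockdown library, the 5 abundant genes were each slightly higher and their intervals lay above 0, while the intervals of the other 4 genes with counts included 0. None of the 10 was called higher. Of all genes tested, 8.29% were called higher. Only Tagln was called lower, against 11.9% of all genes tested, and on 35 and 23 counts. Added up, the 10 genes took 1235 CPM in control cells and 1413 CPM in MALAT1-knockdown cells, of which the 5 abundant genes gave 99.0% and 99.2%.

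**Figure D1:**
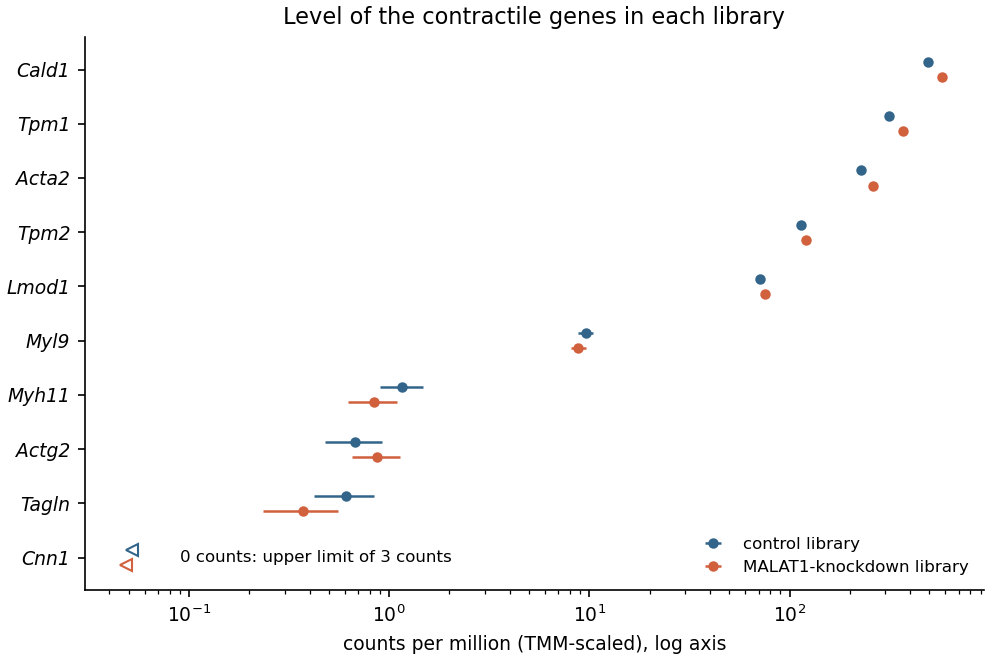
Level of the 10 contractile genes in the control library (blue) and the MALAT1-knockdown library (orange), in TMM-scaled CPM on a log axis, with exact Poisson 95% intervals that cover counting error only. The 5 abundant genes lie from 71.6 to 494 CPM in the control library. For Cnn1, which had 0 counts, the open triangles mark a fixed floor of 3 counts and not the Poisson limit.

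Of the smooth muscle actins, only Acta2 was abundant. Acta2 encodes α-smooth muscle actin and lies at chr19:34241090-34255590 on the minus strand (GENCODE M21, GRCm38, the build named in the submitters' processing notes). Its count was 13163 for control cells and 16191 for knockdown cells, which is 228 and 261 CPM. The knockdown library was therefore 14.2% higher, at a log2 fold change of 0.19 (95% interval 0.16 to 0.23). Of the 8251 genes with a mean of at least 1000 counts, 15.2% had a larger log2 fold change than Acta2. Actg2, the γ-smooth muscle actin typical of gut and other visceral muscle, lies at chr6:83512905-83536265 on the minus strand. It was counted 39 and 54 times, or 0.676 and 0.869 CPM, and its log2 fold change of 0.36 had an interval from -0.26 to 0.996. Per kilobase of exon, Acta2 stood at 104 CPM and Actg2 at 0.434 CPM in control cells.

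Caldesmon and tropomyosin 1 were the contractile genes with the most counts, and Tpm2 had fewer than Acta2. Tpm1, which encodes a tropomyosin with both muscle and nonmuscle isoforms, lies at chr9:67022590-67049406 on the minus strand. It was counted 18136 times in the control library and 22828 times in the knockdown library. Its level was 314 CPM and 367 CPM, so the log2 fold change was 0.23 (0.20 to 0.25). Cald1, the caldesmon gene (chr6:34598500-34775473, plus strand), had 28518 and 35869 counts, or 494 and 577 CPM, and its log2 fold change was 0.22 (0.20 to 0.25). Tpm1 and Cald1 were thus 16.9% and 16.8% higher in the knockdown library. Among genes with a mean of at least 1000 counts, 11.6% had a larger log2 fold change than Tpm1 and 11.7% a larger one than Cald1. Tpm2 encodes the tropomyosin called β, lies at chr4:43514711-43523765 on the minus strand, and had 6595 and 7536 counts, or 114 and 121 CPM. Its log2 fold change of 0.09 (95% interval 0.04 to 0.13) was smaller than that of Tpm1, and their intervals did not overlap. Tpm1, Tpm2 and Cald1 each make several transcripts, and a count per gene does not separate their smooth muscle isoforms from the nonmuscle ones.

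Lmod1, leiomodin 1, starts new actin filaments in smooth muscle and is found in few other tissues. It lies at chr1:135324807-135368065 on the plus strand. The count of Lmod1 was 4129 against 4680 in the knockdown library, which is 71.6 and 75.3 CPM. The log2 fold change was 0.07 (0.01 to 0.13), the smallest difference among the 5 abundant genes, and 35.8% of the genes with a mean of at least 1000 counts had a larger one. The interval began close to 0.

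Transgelin and calponin 1, which are abundant in smooth muscle, were at or near 0 in these counts. Tagln, the transgelin gene also called SM22α, was counted 35 times in control and 23 times in knockdown cells, or 0.607 and 0.370 CPM. Its log2 fold change of -0.70 had an interval from -1.54 to 0.09, so the call rested on a difference within counting error. The Tagln count is uncertain for another reason as well. The gene lies at chr9:45929619-45936058 on the minus strand, and 67.9% of its 1988 exon bases are also covered by exons of Pcsk7 and Gm48529 on the opposite strand. The library kit kept the strand of the RNA, but whether the counting used it is not given in the sources used here, and without strand the reads of these genes cannot be told apart. Pcsk7, a proprotein convertase gene, had 3148 and 3300 counts and a log2 fold change of -0.04. Cnn1, calponin 1, had 0 counts in both libraries, which allows up to 3 counts, or 0.0520 CPM in control cells and 0.0483 CPM in knockdown cells. It lies at chr9:22099216-22109630 on the plus strand. None of its exon bases is covered by another gene, and 0% of the 50-base stretches of its longest transcript occur in a transcript of another gene. These checks cover overlap and shared sequence only, and whether reads of Cnn1 were lost in another way was not tested. In control cells, 15 widely expressed reference genes ran from 6.34 to 3479 CPM, with Gapdh at 16.7 CPM. A low count for a gene was therefore not limited to the contractile genes.

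Of the smooth muscle myosin genes, Myh11 was scarce and Myl9 lay between the scarce and the abundant genes. Myh11, the smooth muscle myosin heavy chain and the most specific marker of mature smooth muscle, lies at chr16:14194535-14291372 on the minus strand. It was counted 67 and 52 times, or 1.16 and 0.837 CPM. The log2 fold change of -0.47 had an interval from -1.02 to 0.07. Myl9, the regulatory light chain whose phosphorylation starts contraction, lies at chr2:156775420-156781658 on the plus strand and had 554 and 547 counts. It stood at 9.60 CPM in control cells and 8.80 CPM in knockdown cells, and its log2 fold change was -0.12 (-0.30 to 0.05). Both myosin genes were thus lower in value in the knockdown library, by differences within counting error.

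**Figure D2:**
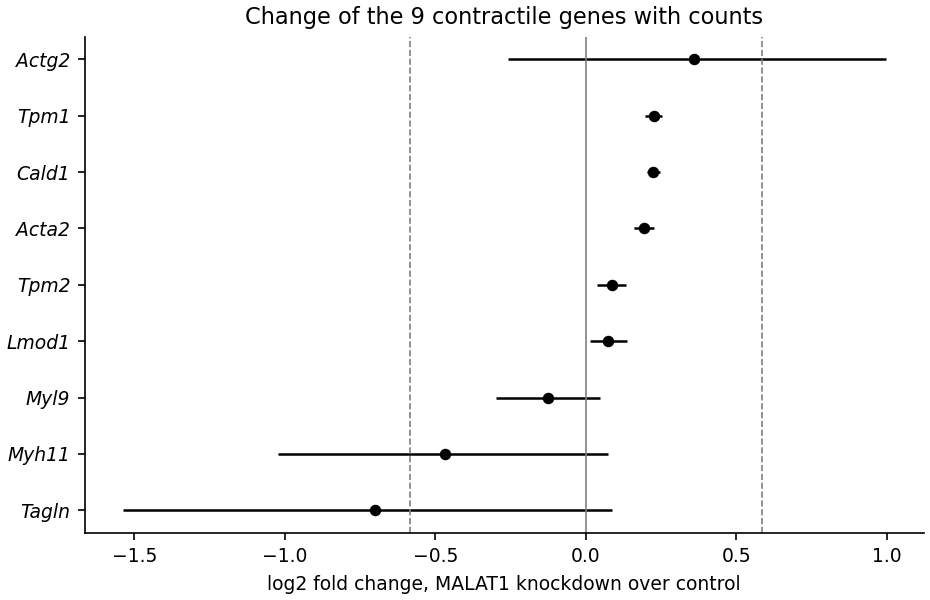
Log2 fold change of MALAT1 knockdown over control for the 9 contractile genes with at least 10 counts in both libraries together, with 95% Clopper-Pearson intervals that cover counting error only. Dashed lines mark 1.5-fold; Cald1, Tpm1, Acta2, Tpm2 and Lmod1 lie above 0 with short intervals, and Actg2, Myl9, Myh11 and Tagln have intervals that include 0.

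The median log2 fold change was 0.09 over the 9 genes that passed the filter, with 6 higher and 3 lower in value. Over all genes tested the median was -0.0029, and 49.6% were higher in value. The size of a fold depended on the number of counts. Among genes with a mean of at least 1000 counts, 1.43% were called higher and 2.84% lower, and 0 of the 5 contractile genes in that range were called. Where the mean was under 100 counts, 21.7% of genes were called higher and 28.9% lower, and 1 of the 3 contractile genes in that range was called. In the abundant range, 53.1% of genes were higher in value in the knockdown library, with 90% of them between -0.43 and 0.35.

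**Figure D3:**
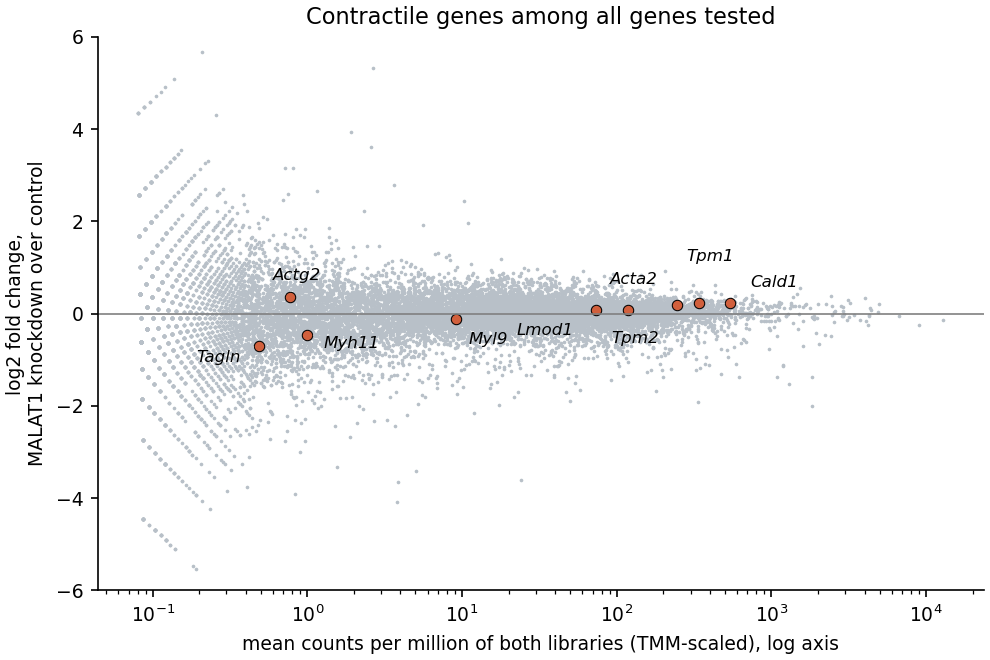
Log2 fold change of MALAT1 knockdown over control against mean CPM on a log axis for the 17356 genes tested (grey), with the contractile genes in orange. The abundant contractile genes lie inside the narrow band of abundant genes, just above 0, and Tagln, Actg2 and Myh11 lie where the grey points spread widely.

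To compare RNA levels within each family, the smooth muscle genes other than Cald1 were set beside their paralogs. Each was given as a share of the family sum per kilobase of exon. Such a share does not depend on how the libraries were scaled. Paralogs other than the listed smooth muscle genes made up most of all but 1 family. Acta2 held 11.1% of the actin family in control cells and 11.0% after knockdown, Actg2 held 0.0462% and 0.0516%, and Actb and Actg1, the cytoplasmic actins, held 61.5% and 27.4% in control cells. Actb had 89358 and 109305 counts (log2 fold change 0.18) and Actg1 had 39558 and 50385 (0.24), so that the 3 abundant actins differed between the libraries by similar amounts. As a share of counts, Acta2 and Actg2 together took 9.29% of the family in control cells (95% Clopper-Pearson interval 9.14 to 9.44) and 9.23% after knockdown (9.10 to 9.37), and these intervals overlap. The Acta2 count was little exposed to its paralogs, with 0.35% of its 50-base stretches found in transcripts of other genes. The same measure was 14.2% for Actb and 56.7% for Actg1, which has pseudogene copies. How reads of shared stretches were counted is not given in the sources used here. If such reads were lost, the share of Acta2 would come out too high, which was not tested.

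The tropomyosin family leaned towards its nonmuscle members. Tpm1 and Tpm2 held 24.6% of the family per kilobase in control cells and 23.2% after knockdown, and Tpm4, a nonmuscle tropomyosin, held 65.9% and 67.1%. As a share of counts, Tpm1 and Tpm2 went from 37.2% (95% interval 36.9 to 37.6) to 35.8% (35.5 to 36.1). These intervals do not overlap. The log2 fold change was 0.28 for Tpm4, with 29815 and 38929 counts, and 0.28 for Tpm3, with 11886 and 15505 counts, both larger than for Tpm1 or Tpm2.

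In the transgelin and calponin families, the smooth muscle member had few counts or none. Tagln2, the widely expressed transgelin, had 11083 and 14533 counts and held 99.1% and 99.6% of its family. Tagln held 0.328% in control cells and 0.165% in knockdown cells, shares that are as uncertain as its count, for the exon overlap given above. Cnn2 and Cnn3, the calponins of nonmuscle cells, held 50.1% and 49.9% of theirs in control cells. The log2 fold change was 0.28 for Tagln2, 0.13 for Cnn2 and 0.28 for Cnn3. Of the 3 genes, Cnn3 shares 17.7% of its exon bases with another gene.

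The myosins gave the same picture. Myh9, nonmuscle myosin IIA, had 89965 and 111042 counts (log2 fold change 0.20) and held 75.1% and 79.3% of the class II heavy chains compared. Myh10, nonmuscle myosin IIB, had 24008 and 23367 counts and a log2 fold change of -0.15 (95% interval -0.17 to -0.12), so the 2 abundant heavy chains differed in opposite directions. Myh11 held 0.0952% in control cells and 0.0632% in knockdown cells. Regulatory and essential light chains were pooled as 1 family. In it Myl6, an essential light chain that is not confined to nonmuscle cells, held 52.9% in each library, and Myl9 held 2.44% and 2.13%. Myl12a and Myl12b, the nonmuscle regulatory light chains, held 27.5% and 16.9% in control cells. Their log2 fold changes were 0.10 and 0.05, and they share exon bases with each other. Leiomodin was the exception on the scale per kilobase of exon. Lmod1 held 52.2% of the leiomodins and tropomodulins in control cells and 51.2% in knockdown cells, above Tmod3 with 39.2% and 41.3%. This order depended on the correction for length, since Lmod1 took 30.7% and 29.2% of the family's counts. The length used joins the exons of all transcripts. It was 11151 bases for Tmod3, whose longest transcript has 3918, and 3948 bases for Lmod1, which has 1 transcript. The values therefore do not settle which of these 2 genes had more RNA.

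**Figure D4:**
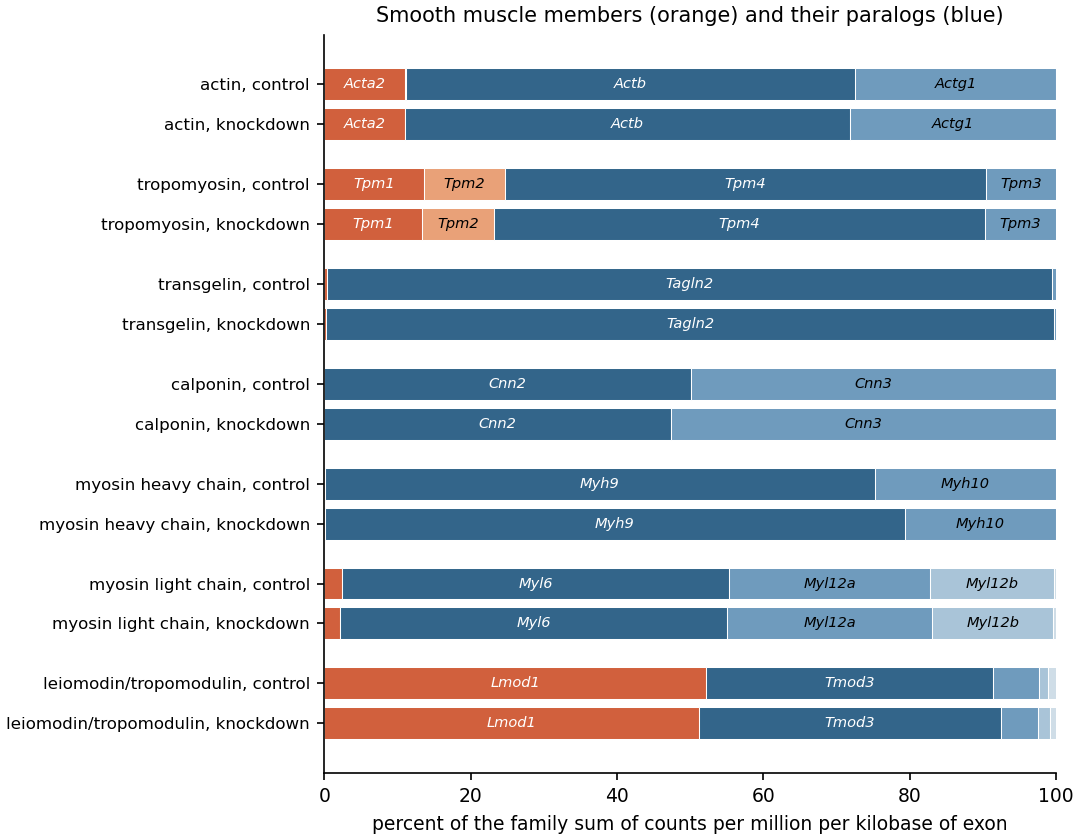
Share of each gene family, in percent of the family sum of CPM per kilobase of exon, held by its smooth muscle members (orange) and by their paralogs (blue), in the control and the MALAT1-knockdown library. Lmod1 is the one smooth muscle gene with most of its family on this scale, and Tagln, Cnn1 and Myh11 are slivers or too small to see.

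Other genes of smooth muscle were mixed. Of 35 such genes listed, 31 were tested, with a median log2 fold change of 0.01. By value 16 were higher and 15 lower, with 2 called higher and 6 called lower, beside 8.29% and 11.9% of all genes tested. The subset for the cytoskeleton had a median of 0.05 over 15 genes. The subset listed as myosin switch had one of 0.05 over 9 genes with 0 called. That subset held kinase and phosphatase genes of the light chain and others, such as Rhoa and Cnksr3. Membrane proteins had a median of -0.26 over 7 genes, of which 3 were called lower. These were Mcam, an adhesion molecule of pericytes and smooth muscle (3233 and 1385 counts, log2 fold change -1.33), Itga7, a laminin receptor of muscle (1589 and 835 counts, -1.03), and Aoc3, an amine oxidase of smooth muscle that adipocytes also make (14523 and 8209 counts, -0.93). Smtn, smoothelin, a marker of contractile smooth muscle, had 8273 and 10524 counts and a log2 fold change of 0.24, close to the values of Cald1 and Tpm1. Des, the muscle intermediate filament desmin, was called lower with 448 and 314 counts. The genes called higher, named here after their values were seen, were Synpo2, an actin-bundling protein of muscle (log2 fold change 0.59), and the small heat shock protein gene Cryab (0.60). The remaining genes called lower, also named afterwards, were Synm, with 6337 and 3710 counts, and Smtnl2, with 20 and 4 counts.

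Stress fibre and adhesion genes were higher in value more evenly. Of 20 genes, all tested, 19 were higher in value, with a median log2 fold change of 0.15. Of the 20, 2 were called higher and 0 lower, beside 8.29% and 11.9% of all genes tested. Both called genes had a mean of at least 1000 counts, where 1.43% of all genes were called higher and 2.84% lower. Ilk was the gene with the lower value, at -0.01. The called genes were Tes, testin, a focal adhesion protein, with 1226 and 2168 counts (log2 fold change 0.72), and Filip1l, with 1454 and 2417 counts (0.63). Fblim1, which ties filamin to adhesions, had a log2 fold change of 0.28 and was not called. The values of Acta2, Tpm1 and Cald1 lie within the range of this list.

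The listed regulators of smooth muscle genes, which were not sorted into activators and repressors, were mixed. Of the 13 tested, 8 were higher in value and 5 lower. The whole list of SRF and MRTF targets and regulators had a median log2 fold change of 0.02 over 26 genes tested, with 0 called higher and 1 called lower, and it includes Acta2 and Myl9. The shares of all genes tested were 8.29% and 11.9%. Myocd, the myocardin gene that drives the contractile state of smooth muscle, was the gene called lower, on 20 and 12 counts, and its interval ran from -2.01 to 0.26. The gene for SRF itself, named after its value was seen, had 3552 and 3527 counts and a log2 fold change of -0.12 (95% interval -0.18 to -0.05). Mkl1, the MRTF-A gene, named for the same reason, had 4602 and 5736 counts and a value of 0.21. Ctgf, a secreted matrix protein gene that SRF and YAP control, had 1159 and 1490 counts and a log2 fold change of 0.26. Prrx1, a mesenchymal homeobox factor, had one of 0.26 (0.25 to 0.28), and Klf5 one of 0.44 (0.22 to 0.66), with 289 and 423 counts. The intervals of Srf, Mkl1, Ctgf, Prrx1 and Klf5 did not include 0.

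**Figure D5:**
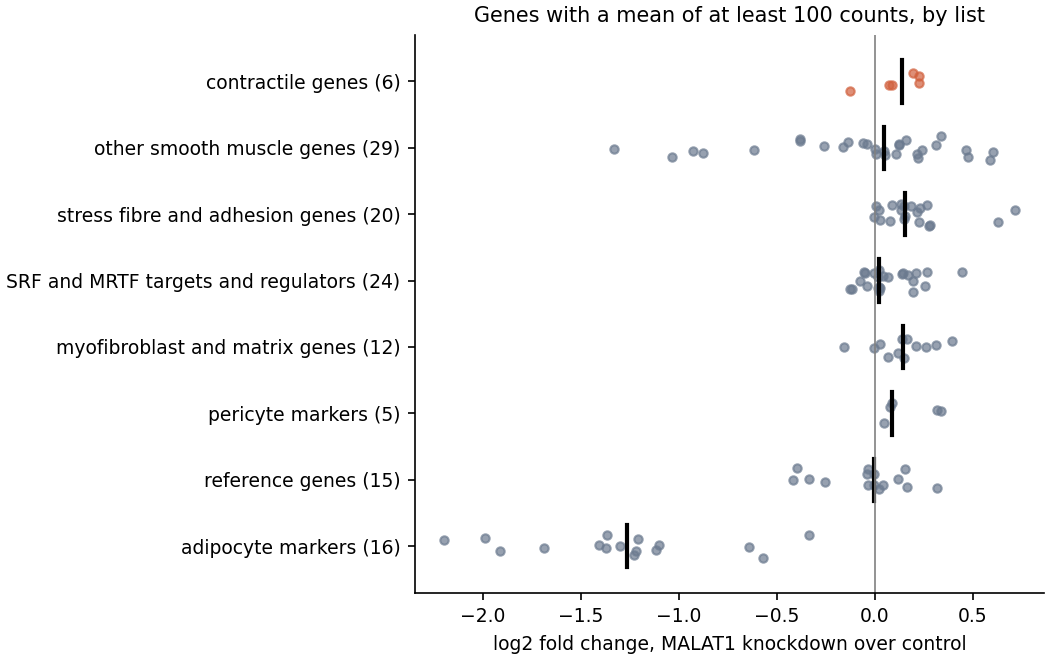
Log2 fold change of MALAT1 knockdown over control for each gene with a mean of at least 100 counts (points), by list, with the number of genes in brackets and the list median as a black line. The 6 contractile genes have a median of 0.14, stress fibre genes one of 0.15, and adipocyte markers one of -1.27.

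Markers of the labelled cell type and of other cells were read beside these values. All 17 adipocyte markers tested were lower in value in the knockdown library, 15 were called lower, against 11.9% of all genes tested, and their median was -1.23. Their summed level was 8491 CPM in control cells and 3739 CPM in knockdown cells. Lep, the leptin gene, was near 0 with 1 and 0 counts. The examples given by rule were Aqp7, the glycerol channel of adipocytes (416 and 97 counts, log2 fold change -2.20), the resistin gene Retn (-1.99) and Gpd1 (-1.91). The 14 myofibroblast and matrix genes had a median of 0.14 over 13 tested. Of these, 0 were called higher and 1 lower, beside 8.29% and 11.9% of all genes tested. The called gene was Fap, named after its value was seen, with 54 and 36 counts. Its mean was under 100 counts, where 28.9% of all genes were called lower. The summed level of the 14 genes was 22488 and 24316 CPM. In bulk RNA, fewer cells of a type and less RNA per cell cannot be told apart. The adipocyte markers and the abundant contractile genes thus differed in opposite directions between these libraries, and the part of the former in the values of the latter was not tested. The 15 reference genes had a median of -0.01, with 0 called, and their log2 fold changes ran from -0.42 to 0.32.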

How the data were processed

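RNA-seq libraries were made by the authors from total RNA after removal of rRNA, with a directional kit. The authors deposited whole-number counts of reads per gene symbol, with no normalization; the submitters' processing notes name HISAT2 and GRCm38, and the counting tool, strand setting, annotation and treatment of repeated reads are not given in the sources used here. Each column was mapped by its label. Library sizes were scaled with TMM (edgeR 4.0.16, R 4.3.3; Python 3.11.15, scipy 1.17.1). With no replicates to estimate a spread, neither edgeR's quasi-likelihood test nor DESeq2 was run as a test; DESeq2 1.42.0 gave size factors for an alternative. Intervals and calls were tried on simulated counts drawn with Poisson error alone. Genes with few counts were also called there without a change. Such counts hold no variation between cultures, so they check the computation and cannot show how the intervals would hold across cultures. Intervals and floors cover counting error only, since reads are not independent molecules. Exon lengths, overlaps and shared 50-base stretches came from GENCODE M21, which held 216 of 220 listed symbols and all 10 contractile genes, and is not known to be the authors' annotation. Symbols with 2 records on 1 strand (Myl12b) were joined.

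The genes and lists were chosen with earlier results of these data known, and the lists were written from general knowledge. Named were the 10 genes, their family members, up to 3 genes per list with the largest log2 fold change in either direction at a mean of at least 100 counts, fixed cell type markers and Malat1. Some of these are left out of the text.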

Additional observations from a re-analysis of the deposited data

How the results depend on the processing

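No paired analysis was possible because each group had 1 library, and no library could be left out. Library totals, DESeq2 size factors and upper-quartile factors in place of TMM left 6 contractile genes higher and 3 lower in value and gave medians of 0.11, 0.09 and 0.10. They moved the median of all genes by 0.02 at most. Under library totals the median of the myofibroblast and matrix genes was 0.16. A prior count of 2, run for the contractile genes and the counts of calls, moved no contractile gene's log2 fold change beyond its interval and gave 1331 genes called higher and 1943 lower. With a 2-fold threshold 0 contractile genes were called lower, against 678 genes higher and 1045 lower overall. With at least 1 count in the sum, 3802 genes were called higher and 4401 lower, whereas requiring 10 counts in both libraries gave 740 and 1231; fewer or more genes with few counts enter there. With a mean of at least 100 counts, chosen after the data were examined, 305 genes were called higher and 551 lower, 0 contractile genes were called lower, and their median was 0.14. Without length correction, the control and knockdown shares were 9.29% and 9.23% for the smooth muscle actins, 37.2% and 35.8% for Tpm1 and Tpm2, 0.0587% and 0.0387% for Myh11, 0.891% and 0.776% for Myl9, and 30.7% and 29.2% for Lmod1, where Lmod1 no longer held most of its family. Single libraries limit every result to these 2 cultures.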

Other observations

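Genes of striated muscle were near 0 in both libraries. Of 36 listed, 10 were tested, 19 had 0 counts in both libraries, and the summed level of the list was 38.6 CPM in control cells and 42.5 CPM in knockdown cells. Myod1, Myog and Myf5, the factors that start skeletal muscle formation, and the skeletal actin gene Acta1 had 0 counts in both, and Ckm, muscle creatine kinase, had 1 and 4. The exceptions were single genes. Mef2c, a factor of muscle and other tissues, had 1182 and 1373 counts (log2 fold change 0.11), Tnni1, the slow skeletal troponin I, had 453 and 645 counts (0.40), and Tnnc1, the slow and cardiac troponin C, had 326 and 278 counts (-0.34).

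Pericytes share several of the contractile genes. Of 9 pericyte markers, 7 were tested, with a median log2 fold change of 0.08. Of these, 0 were called higher and 2 lower, beside 8.29% and 11.9% of all genes tested. Both genes called lower had a mean under 100 counts, where 28.9% of all genes were called lower. Mcam, which pericytes also make, stood in the list of other smooth muscle genes and was called lower on 3233 and 1385 counts (log2 fold change -1.33). Pdgfrb, the receptor that recruits pericytes, had 28172 and 37790 counts (log2 fold change 0.32), Anpep had a value of 0.34 and Cd248 one of 0.09. Cspg4, with 13363 and 14854 counts, and Notch3, with 6994 and 7941, were abundant as well, whereas Rgs5 had 0 and 1 counts. Kcnj8, a potassium channel gene, was called lower on 19 and 4 counts. The other called gene, Abcc9, named after its value was seen, encodes the partner subunit of that channel and had 12 and 1 counts. Endothelial markers summed to 1.44 CPM in control cells and 2.17 CPM in knockdown cells, with Cdh5 and Kdr at 0 and 1 counts, and leukocyte markers to 3.21 and 2.53 CPM, with Ptprc and Adgre1 at 0 in both.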
